A study of Mus musculus with 8 samples.

Results

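The genes described here encode the major cytosolic and mitochondrial heat shock proteins of the mouse. They were 10 of the 52143 genes in the deposited expression table and were picked by symbol, none of which was repeated in the table. Of these, 6 were treated as heat-inducible (Hspa1a, Hspa1b, Hsph1, Hsp90aa1, Dnajb1 and Hspb1) and 4 as constitutive (Hspa8, Hsp90ab1, Hspd1 and Hspe1), and all 10 passed the filter on low values.

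RNA was taken from the colon of mice at baseline, with 4 samples labelled Control and 4 labelled SiglecXII (8 in all). The control mice carried Villin1-Cre-ERT, a tamoxifen-activated Cre recombinase driven by the promoter of Villin1, a gene of the gut epithelium. The Siglec-XII mice (SIGLEC12-Villin1-Cre-ERT) carried the same Cre with the human SIGLEC12 gene placed in the mouse ROSA26 locus behind a loxP-flanked EGFP cassette that Cre removes. Both groups received tamoxifen (10 mg/ml) for 5 days and were killed 7 days after the last dose, so the control samples share the Cre and the drug. The transgene itself was not analysed here, so it gave no check of the labels. By the Methods, the mice were 8 weeks old at the first dose. Whether the 4 samples of a group are 4 mice is not settled: no label ties a sample to a mouse, the design text names 3 mice per condition, and the Methods describe 3 technical replicate libraries made from each sample. Some samples of a group may therefore share a mouse, and every SD, n = 4 and p-value here measures only the spread between these samples, which may be technical.

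Heat shock proteins are chaperones that bind unfolded proteins and help them fold, move or be degraded. The HSP70 proteins (Hspa1a, Hspa1b, Hspa8) work with HSP40 co-chaperones such as Dnajb1 and with the exchange factor Hsph1, pass client proteins to the HSP90 proteins (Hsp90aa1, Hsp90ab1), and are joined by small heat shock proteins such as Hspb1, while Hspd1 and Hspe1 form the folding chamber of the mitochondrial matrix and its lid. Heat shock factor 1 drives the inducible genes by binding repeats of the letters GAA, alternately inverted, in their promoters, and HSP90 is also the protein that holds steroid-receptor fusions such as Cre-ERT in the cytoplasm until the ligand binds.

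Promoter stretches are shown for the tandem pair Hspa1a and Hspa1b, for Hspb1, which had the widest spread between samples, and for the region that Hspd1 and Hspe1 share, with matches to these repeats in capitals. The stretches were read from RefSeq gene starts on GRCm38.p6 and lie before the start of the gene. A pair of units was searched as GAANNTTC or TTCNNGAA, 3 units as GAANNTTCNNGAA or TTCNNGAANNTTC, and 4 units as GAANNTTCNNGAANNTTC or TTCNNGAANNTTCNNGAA. Each pattern reads the same on both strands or as its partner, and the longer ones contain the shorter ones. Hspa1a and Hspa1b, on chromosome 17 and on the minus strand, had the same 100 bases at chr17:34972182-34972281 and chr17:34959264-34959363. Hspb1 is read at chr5:135887769-135887868 on the plus strand. The Hspe1 stretch at chr1:55088043-55088102, on the plus strand, lies before the start of Hspe1 and, in the opposite direction, before 1 of the 2 RefSeq starts of Hspd1; from the other start of Hspd1 it lies inside the gene.
Hspa1a: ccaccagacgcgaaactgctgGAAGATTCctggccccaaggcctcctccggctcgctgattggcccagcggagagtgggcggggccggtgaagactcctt
Hspa1b: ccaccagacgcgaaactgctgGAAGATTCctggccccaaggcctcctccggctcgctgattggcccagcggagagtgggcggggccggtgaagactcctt
Hspb1: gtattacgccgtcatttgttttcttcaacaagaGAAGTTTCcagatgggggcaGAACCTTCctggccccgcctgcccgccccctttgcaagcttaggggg
Hspe1: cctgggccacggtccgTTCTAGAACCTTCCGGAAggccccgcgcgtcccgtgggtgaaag

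RefSeq promoters of 300 bases, which run past the start of the gene, were held for 7 of the 10 genes, all but Hspa8, Hsp90aa1 and Hsp90ab1. A match of 2 units was found for 6 of the 7, all but Dnajb1, against 15.1% of 32851 mouse promoters of this length. The 7 genes had 10 promoters, and a gene was counted if any of its promoters had a match. The shares of all promoters are per promoter, so the units are unlike. A match of 3 units was found for Hspd1, Hspe1 and Hsph1, against 0.603% of promoters, and the 4-unit run between Hspd1 and Hspe1 was of a kind held by 0.0244%. The matches of Hspd1 and Hspe1 are the same site read from both sides, absent from the promoter at the other start of Hspd1. The 3-unit match of Hsph1 lies after the start, beginning at base 37 or 16 of the gene for its different RefSeq starts. The whole 300-base promoters of Hspa1a and Hspa1b differed at 4 bases and were 98.67% identical. These matches describe letters only, and no binding was measured in these samples.

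The values are log2(TPM + 1), where TPM is the share of transcripts assigned to a gene, a level that takes gene length into account, so that genes can be compared with each other. In the control colon, the constitutive chaperones Hspa8 (mean 10.01 ± 0.059, SD, n = 4) and Hsp90ab1 (9.54 ± 0.068) were the highest of the 10, and their ranges over the control samples did not overlap. Below them came Hspb1 (7.54 ± 1.60), Hspe1 (7.02 ± 0.30), Hspd1 (6.79 ± 0.12), Hsp90aa1 (6.37 ± 0.048), Dnajb1 (5.03 ± 0.28), Hspa1b (4.46 ± 1.17), Hsph1 (3.36 ± 0.13) and Hspa1a (2.35 ± 0.68). The neighbours Hspb1 and Hspe1, Hspe1 and Hspd1, Dnajb1 and Hspa1b, and Hspa1b and Hsph1 had overlapping control ranges. The place of Hspb1 came from control samples 1 and 4 (9.14 and 8.70). In control samples 2 and 3 it was 6.27 and 6.06, below Hspe1, Hspd1 and Hsp90aa1. The order therefore placed the constitutive HSP70 and HSP90 genes far above their inducible relatives, with Hsp90aa1 lower than Hsp90ab1 by 3.17 ± 0.042 and Hspa1b lower than Hspa8 by 5.54 ± 1.21 on the log2 scale. Together the 10 genes took between 0.217% and 0.282% of all TPM in the control samples and between 0.135% and 0.219% in the Siglec-XII samples.

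All 10 genes had a lower mean in the Siglec-XII samples, and none passed the test across genes (limma with Benjamini-Hochberg adjustment, adjusted p between 0.515 and 0.639). Over the 13164 genes tested, 0.038% were called at an adjusted p of 0.05. At an unadjusted p of 0.05, 6 of the 10 genes were lower (Hspa1a, Hspa1b, Hsph1, Hsp90aa1, Hsp90ab1 and Hspd1), 4 of them inducible and 2 constitutive, and none was higher, against 7.67% of all genes called lower. The median difference of the 10 genes was -0.55, beside -0.15 for all genes tested, of which 78.1% had a difference below 0. The lower side held 86.5% of all unadjusted calls with the deposited scale, but 20.04% after each sample was centred on its median gene and 36.0% after quantile normalization. Of the 10 genes, 3 and 5 were then called lower, against 2.16% and 3.05% of all genes. Hsph1, Hsp90aa1 and Hspa1b were called after both, Hsp90ab1 and Hspd1 only after quantile normalization, and Hspa1a after neither. Left out singly, control 1, control 4 or Siglec-XII 4 took the count from 6 to 3 (against 7.51%, 3.91% and 3.18% of all genes) and Siglec-XII 3 to 2 (2.93%), and without both Siglec-XII samples 3 and 4 it was 2 (1.57%). Relative to the median gene, 9 of the 10 differences were lower, and only Hspe1 was not.

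**Figure D1:**
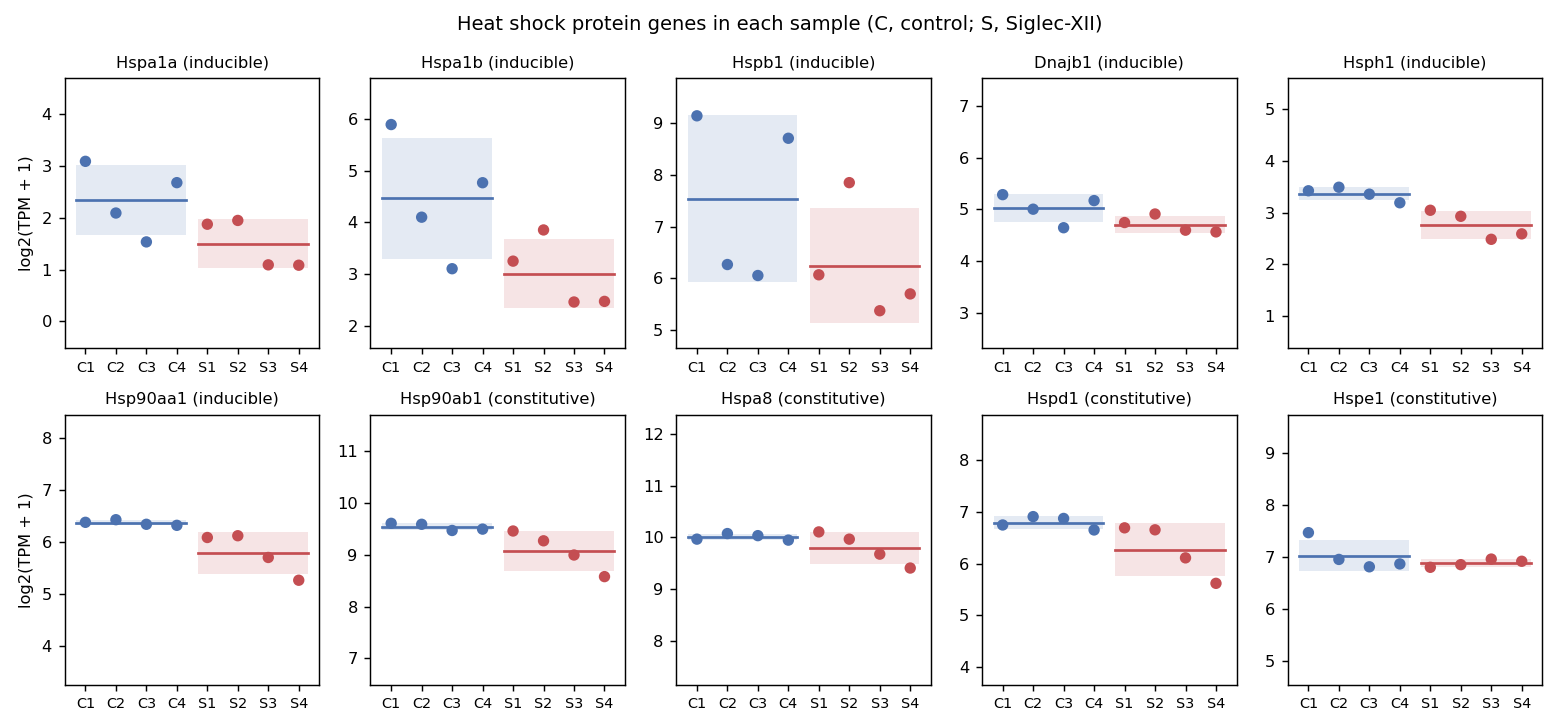
Level of each heat shock protein gene in each sample, as log2(TPM + 1), on axes of equal span. Points are samples (C1 to C4, control; S1 to S4, Siglec-XII), lines are group means and bands are ± 1 SD (n = 4). Hsph1, Hsp90aa1 and Hsp90ab1 do not overlap between the groups, whereas Hspa1b and Hspb1 vary most within each of them.

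The inducible HSP70 genes Hspa1a and Hspa1b lie in tandem on chromosome 17 and encode nearly identical proteins that rise steeply in stressed cells. Hspa1b was measured at 5.89, 4.10, 3.11 and 4.77 in control samples 1 to 4 and at 3.25, 3.85, 2.47 and 2.48 in Siglec-XII samples 1 to 4, in log2(TPM + 1). The groups overlapped, with control 1 far above and Siglec-XII samples 3 and 4 at the bottom. Its difference was -1.45 (SE 0.557, 95% interval -2.71 to -0.19), or 2.74-fold lower on that scale, with an adjusted p of 0.515 in limma, and -0.91 without Siglec-XII samples 3 and 4. In TPM, the control samples alone ran from 7.62 in control 3 to 58.2 in control 1.

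Hspa1a was measured at 3.09, 2.09, 1.53 and 2.68 in the control samples and at 1.87, 1.95, 1.09 and 1.08 in the Siglec-XII samples. The groups again overlapped, since control 3 lay below Siglec-XII samples 1 and 2. The difference was -0.85 (SE 0.355, 95% interval -1.65 to -0.04; adjusted p 0.515, limma), at levels of 7.49 TPM and below, and -0.44 without Siglec-XII samples 3 and 4. The pair varied together over the 8 samples (Pearson r = 0.984, adjusted p = 0.000298, exact two-sided permutation test over 6 pairs of genes; Spearman rho = 0.976, adjusted p = 0.00238), and r was 0.973 without the 2 samples farthest from the median of Hspa1a. Of the 31-base windows of the Hspa1a transcript, 63.8% also occur in Hspa1b, so the split of reads between the genes is uncertain and its part in the correlation was not tested. Their summed TPM gave a difference of -1.41, with control samples at 6.06, 4.35, 3.39 and 5.03 and Siglec-XII samples at 3.61, 4.11, 2.73 and 2.74.

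Hspb1, the small heat shock protein HSP25, had the widest spread of the 10 genes within groups. It was measured at 9.14, 6.27, 6.06 and 8.70 in the control samples and at 6.07, 7.85, 5.38 and 5.70 in the Siglec-XII samples, or 562, 76.1, 65.6 and 416 TPM against 66.2, 229, 40.6 and 51.1 TPM. Control samples 1 and 4 and Siglec-XII sample 2 stood above the other 5, so that the groups overlapped. Its difference of -1.29 (SE 0.797, 95% interval -3.09 to 0.51) was not distinguishable from 0 (unadjusted p = 0.139, adjusted p = 0.522, limma), and it was -0.76 without control 1 and -0.58 without Siglec-XII samples 3 and 4.

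Dnajb1, the HSP40 co-chaperone that brings clients to inducible HSP70, had values of 5.28, 5.00, 4.65 and 5.17 in the control samples and of 4.75, 4.91, 4.60 and 4.57 in the Siglec-XII samples. Control samples 1 and 4 were the highest, as for Hspa1b, and the groups overlapped. The difference was -0.32 (SE 0.153, 95% interval -0.67 to 0.03; adjusted p 0.515, limma).

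Control samples 1 and 4, in which these 4 genes were highest, were also those with most RNA of stratified squamous epithelium, the lining that lies next to the colon at the anus. This was seen by asking which genes had the pattern most like Hspb1: the nearest over the 8 samples were Krt14, a keratin of basal squamous cells (Pearson r = 0.999), Gjb2, a gap junction gene (0.996), and Krt6a, another squamous keratin (0.996). A list of 12 squamous genes was then drawn up after these values were seen. It included Krt14 and Krt6a themselves. All 12 had values above 0 in every sample. Their summed level was 24356, 2143, 1734 and 12597 TPM in control samples 1 to 4 and 2067, 6312, 962 and 1164 TPM in Siglec-XII samples 1 to 4. The groups overlapped, and none of the 12 genes was called at adjusted p, although all 12 differences were below 0 (median -1.56, from -0.19 for Krtdap to -2.08 for Krt6a).

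On the log2 scale, this sum correlated over the 8 samples with Hspb1 (r = 0.994), Hspa1b (0.944), Hspa1a (0.939) and Dnajb1 (0.924), and less with Hspe1 (0.585), Hsp90aa1 (0.584), Hsp90ab1 (0.574), Hsph1 (0.532), Hspd1 (0.463) and Hspa8 (0.395). These correlations are descriptions over 8 points that share a library and carry no p. Krt14 and Krt6a, found by their likeness to Hspb1, are part of the sum. Its match to Hspb1, here and as the covariate below, was therefore partly fixed in advance. With the squamous level as a covariate, an alternative chosen after seeing the data, the difference of Hspb1 turned to 0.06, and those of Hspa1b, Hspa1a and Dnajb1 were -0.56, -0.31 and -0.12. Without the 3 samples with the highest squamous sum, also chosen after seeing the data, the differences were -0.45 for Hspb1, -0.87 for Hspa1b, -0.46 for Hspa1a and -0.19 for Dnajb1. These 3 samples were also the highest for Hspb1, so the smaller difference of Hspb1 without them was partly fixed in advance. In bulk tissue, fewer cells of a type cannot be told apart from less RNA per cell, and the part of squamous tissue in these differences was not otherwise tested.

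**Figure D2:**
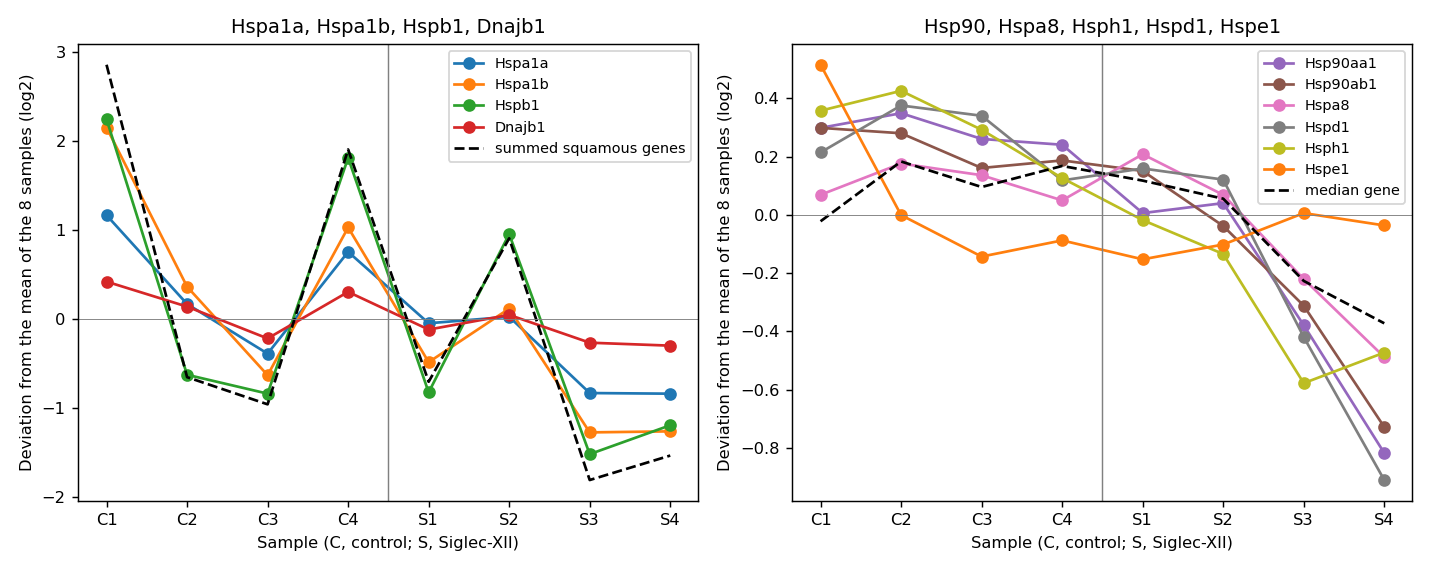
Deviation of each gene from its mean over the 8 samples, in log2 units, with control samples left and Siglec-XII samples right of the vertical line. Left, Hspa1a, Hspa1b, Hspb1 and Dnajb1 with the summed level of 12 squamous genes (dashed). All are highest in control 1, next highest in control 4 and lowest in Siglec-XII samples 3 and 4. Right, the other 6 genes with the deviation of the median gene (dashed), where all but Hspe1 are lowest in Siglec-XII samples 3 and 4.

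Among the genes most like Hspa1b over the 8 samples were Porcn, an acyltransferase for Wnt ligands (r = 0.999), and Fam84a (0.994). They differed by -0.59 and -1.13 on the log2 scale, with an adjusted p of 0.515 for both in limma.

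Hsph1, the HSP110 protein that exchanges the nucleotide on HSP70, and the HSP90 genes made a second set with narrow control values. Hsph1 was measured at 3.42, 3.49, 3.36 and 3.19 in the control samples and at 3.05, 2.93, 2.49 and 2.59 in the Siglec-XII samples. Every Siglec-XII sample was below every control sample, with the lowest in samples 3 and 4. The difference was -0.60 (SE 0.158, 95% interval -0.96 to -0.24), or 1.52-fold lower, with the smallest unadjusted p of the 10 genes (0.00415) and an adjusted p of 0.515 in limma. Without Siglec-XII samples 3 and 4 it was -0.38.

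Hsp90aa1, the inducible cytosolic HSP90, was measured at 6.38, 6.43, 6.34 and 6.32 in the control samples and at 6.09, 6.12, 5.70 and 5.26 in the Siglec-XII samples. The control samples had an SD of 0.048 and the Siglec-XII samples, all below them, of 0.401. The difference was -0.58 (SE 0.179, 95% interval -0.98 to -0.17; unadjusted p 0.0107 and adjusted p 0.515, limma), and -0.26 without Siglec-XII samples 3 and 4.

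Hsp90ab1, the constitutive HSP90, was measured at 9.61, 9.59, 9.47 and 9.49 in the control samples and at 9.46, 9.27, 8.99 and 8.58 in the Siglec-XII samples. Its groups also did not overlap, although Siglec-XII sample 1 (9.46) lay just below the lowest control (9.47). The difference was -0.46 (SE 0.171, 95% interval -0.85 to -0.08; adjusted p 0.515, limma). It was -0.30 without Siglec-XII sample 4 and -0.18 (unadjusted p 0.113, limma) without samples 3 and 4. Groups that did not overlap in the lower direction were thus found for 3 of the 10 genes, against 4.06% of all genes tested.

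The inducible and constitutive HSP90 genes kept nearly the same distance in every sample. Hsp90aa1 minus Hsp90ab1 was between -3.23 and -3.13 in the control samples and between -3.37 and -3.15 in the Siglec-XII samples, a difference of -0.11 between the group means. Their levels correlated at r = 0.981 (adjusted p = 0.00164, exact permutation test; rho = 0.929, adjusted p = 0.00446), and at 0.776 without Siglec-XII samples 3 and 4. Hsp90aa1 and Hsph1 correlated at r = 0.903 (adjusted p = 0.00372, exact permutation test; rho = 0.952, adjusted p = 0.00342), and at 0.939 without the same samples, but the p for r missed the threshold after centring on the median gene (r = 0.743, adjusted p = 0.0621). Hsph1 and Dnajb1 (r = 0.668, adjusted p = 0.116, and rho = 0.714, adjusted p = 0.0864, exact permutation test), with r = 0.295 without those samples, were not shown to vary together. The groups of Hsp90aa1, Hsp90ab1 and Hsph1 did not overlap, so the group difference is part of their correlations. On values centred on their group means, r was 0.966 for the HSP90 pair (adjusted p = 0.00246, exact permutation test). For Hsp90aa1 with Hsph1 it was 0.754 (adjusted p = 0.0476, same test).

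Hspa8, the constitutive HSP70 and the highest of the 10 genes, was measured at 9.97, 10.08, 10.03 and 9.95 in the control samples and at 10.11, 9.97, 9.68 and 9.41 in the Siglec-XII samples. Siglec-XII sample 1 was the highest of all 8 and samples 3 and 4 were the lowest. The difference was -0.22 (SE 0.144, 95% interval -0.54 to 0.11; adjusted p 0.535, limma), it was -0.0030 after median centring and it was -0.09 without Siglec-XII sample 4 and turned to 0.03 without Siglec-XII samples 3 and 4. Hspa8 and Hspa1b were not shown to move together (r = 0.504, adjusted p = 0.239; rho = 0.357, adjusted p = 0.467, exact permutation test), and r was -0.64 without Siglec-XII samples 3 and 4. Of the 31-base windows of Hspa8, 79.7% occur in other transcripts, mostly in the pseudogene Gm15459, which limits its counting. The same limit applies to Hspb1 (65.4% shared), Hsp90aa1 (62.9%), Hspe1 (59.1%) and Hspd1 (55.8%). It is smaller for Hsp90ab1 (16.6%) and Dnajb1 (1.11%), and Hsph1 shares no window.

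Hspd1 and Hspe1, the mitochondrial chaperonin and its co-chaperonin, differed from each other although they share the promoter region shown above. Hspd1 was measured at 6.75, 6.91, 6.87 and 6.65 in the control samples and at 6.69, 6.65, 6.11 and 5.62 in the Siglec-XII samples, so that Siglec-XII samples 1 and 2 overlapped the control range and samples 3 and 4 lay far below it. Its difference was -0.52 (SE 0.223, 95% interval -1.03 to -0.02; adjusted p 0.515, limma). Without Siglec-XII sample 4 it was -0.31, and without samples 3 and 4 it was -0.12.

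Hspe1 was measured at 7.47, 6.95, 6.81 and 6.86 in the control samples and at 6.80, 6.85, 6.96 and 6.92 in the Siglec-XII samples. The control group was led by sample 1, and the groups overlapped. The difference was -0.14 (SE 0.143, 95% interval -0.47 to 0.18; adjusted p 0.639, limma), close to the -0.15 of the median gene, and its sign turned after median centring (0.07) and without control 1 (0.0061). The pair correlated at r = 0.067 (adjusted p = 0.868; rho = -0.10, adjusted p = 0.840, exact permutation test), and at 0.056 without Siglec-XII samples 3 and 4. Hspd1 minus Hspe1 was -0.72, -0.04, 0.06 and -0.21 in the control samples and -0.11, -0.20, -0.85 and -1.30 in the Siglec-XII samples, so that samples 3 and 4 were the lowest of the 8. By the same rule as for Hspa1b, the genes most like Hspd1 were Ssrp1 (r = 0.998), Rangap1 (0.998) and Xpo5 (0.997), which serve chromatin and nuclear transport.

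Siglec-XII samples 3 and 4, in which all of the 10 genes but Hspe1 were lowest, stood apart in other measures. They also had the lowest squamous sums (962 and 1164 TPM). Their median gene lay 0.23 and 0.37 below the mean of the 8 samples, against a range from -0.02 to 0.18 in the other 6. Transcripts of the mitochondrial genome took 10.0% and 12.8% of TPM there and between 5.74% and 8.80% elsewhere. Over the 8 samples, the median-gene deviation correlated with Hspa8 (r = 0.945), Hspd1 (0.936), Hsp90aa1 (0.912), Hsp90ab1 (0.907) and Hsph1 (0.795). It correlated less with Hspa1a (0.598), Dnajb1 (0.548), Hspa1b (0.511) and Hspb1 (0.397), and not with Hspe1 (-0.17). With the share of mitochondrial-genome transcripts, r ran from -0.980 for Hsp90aa1 to -0.236 for Hspe1. These are descriptions over points that share a library. Transcripts of the mitochondrial genome were also removed and TPM rescaled, an alternative chosen after seeing the data. The differences were then -0.56 for Hsph1, -0.53 for Hsp90aa1, -0.41 for Hsp90ab1, -0.47 for Hspd1, -0.16 for Hspa8 and -0.09 for Hspe1. Those of Hspa1b, Hspb1, Hspa1a and Dnajb1 were -1.42, -1.24, -0.83 and -0.27. At unadjusted p, 5 of the 10 genes were lower, against 5.82% of all genes. The part of the median shift in the differences was not tested beyond the centring given above.

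The shift in samples 3 and 4 also followed transcript length. Genes with transcripts of up to 1000 bases differed by a median of -0.10 and -0.17 from the control mean in samples 3 and 4, and those over 4000 bases by -0.44 and -0.62, while samples 1 and 2 stayed between -0.03 and 0.09 in all 5 length classes. The transcript of Hspe1 has 774 bases and that of Hspd1 2423, and the longest of the 10, Hsp90aa1, has 3281. Hspb1, with 903 bases, is short and did not follow the length trend. With the length trend removed in each sample, the differences were -0.35 for Hspd1, -0.37 for Hsp90aa1, -0.29 for Hsp90ab1, -0.40 for Hsph1, -0.04 for Hspa8 and -0.02 for Hspe1. Those of Hspa1b, Hspb1, Hspa1a and Dnajb1 were -1.27, -1.17, -0.66 and -0.13. At unadjusted p, 4 of the 10 genes were then lower, against 3.20% of all genes. This alternative was chosen after seeing the data.

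**Figure D3:**
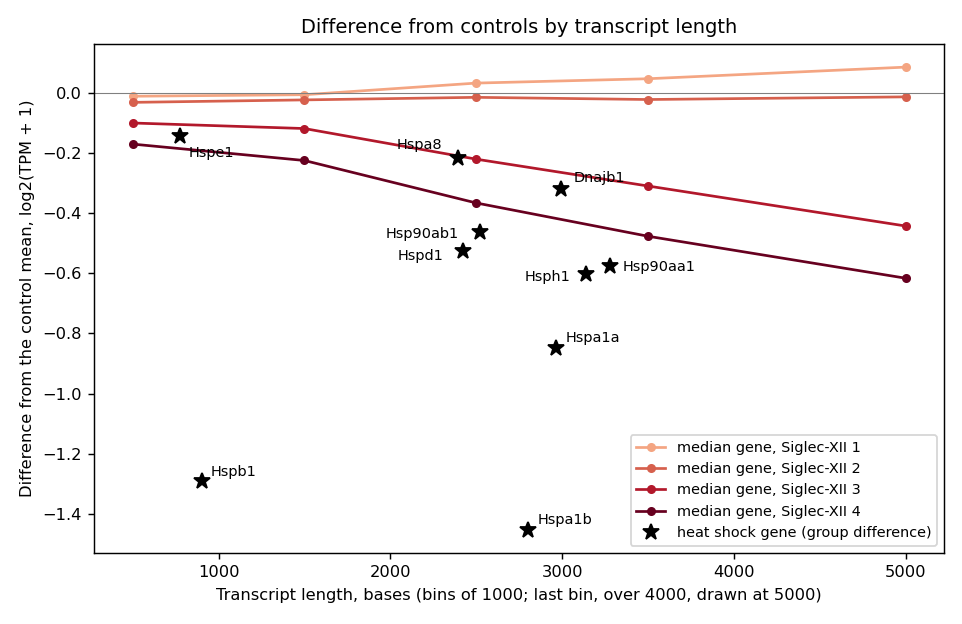
Difference from the control mean in log2(TPM + 1) against transcript length in bases. Lines join the median gene of each length class in each Siglec-XII sample and fall with length in samples 3 and 4 but not in samples 1 and 2; stars are the Siglec-XII minus control differences of the 10 heat shock protein genes, from -0.14 for Hspe1 to -1.45 for Hspa1b.

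Set against each other, the inducible genes were on average lower by more than the constitutive ones, but within the spread of the samples. Among single genes, the inducible Dnajb1 (-0.32) differed by less than the constitutive Hspd1 (-0.52) and Hsp90ab1 (-0.46). The other inducible genes differed by more than any constitutive gene, Hsp90aa1 (-0.58) only narrowly. The mean of the 6 inducible genes was 4.85 ± 0.60 (SD, n = 4) in the control samples and 4.004 ± 0.48 in the Siglec-XII samples, a difference of -0.85. The mean of the 4 constitutive genes was 8.34 ± 0.092 against 8.004 ± 0.29, a difference of -0.34. Inducible minus constitutive was -2.91, -3.82, -4.12 and -3.10 in the control samples and -4.08, -3.58, -4.32 and -4.02 in the Siglec-XII samples. The groups overlapped and their means differed by -0.51, near the SD of 0.57 within the control samples, and no test was run on this score. That difference was -0.32 without control 1, -0.17 without the 3 samples with most squamous RNA and -0.42 without Hspb1 among the inducible genes. The 3 samples with most squamous RNA also had the highest values of this score. The smaller difference without them was therefore partly fixed in advance.

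**Figure D4:**
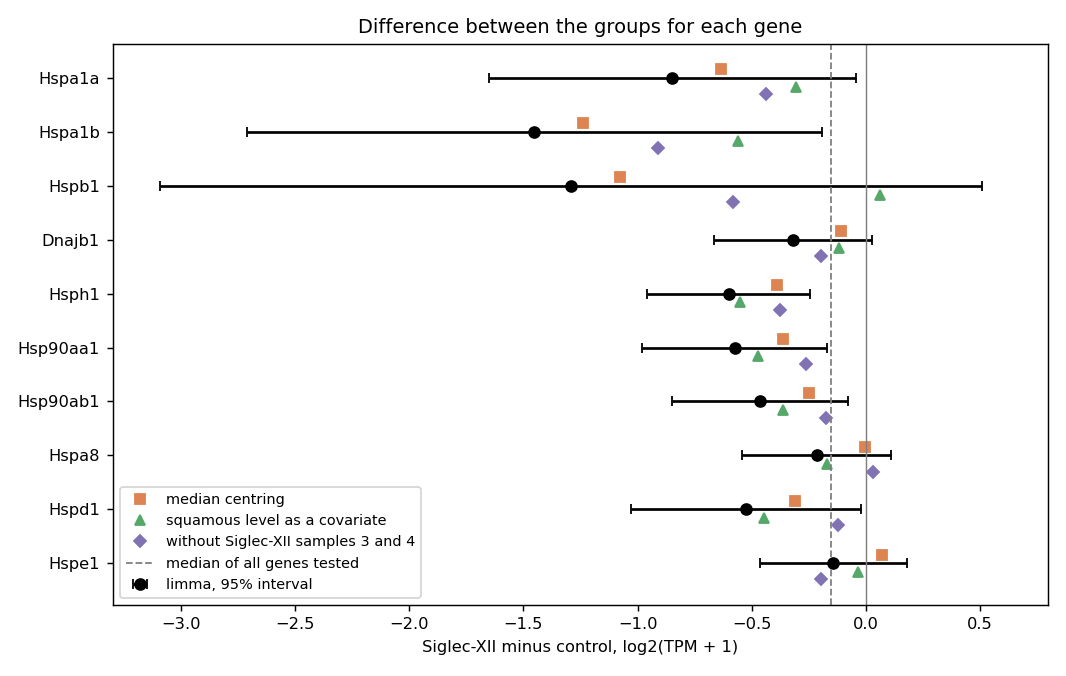
Siglec-XII minus control difference of each gene in log2(TPM + 1), with its 95% interval from limma (black), and under 3 alternatives: each sample centred on its median gene (squares), the squamous level as a covariate (triangles), and without Siglec-XII samples 3 and 4 (diamonds). The dashed line is the median of all genes tested (-0.15); 7 of the 10 black points lie to the left of -0.40, and the alternatives lie nearer to 0 for all but Hspe1.

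The rest of the heat shock system showed no gene at an adjusted p of 0.05 in any list. The lists share genes, so their counts are not independent. Dnaja4 and Stip1, for example, were each counted at unadjusted p in both lists that hold them. Of all genes tested, 78.1% were below 0 and 7.67% were lower at unadjusted p. Of the heat shock factors, Hsf1, the main activator, differed by -0.07 (SE 0.146) and Hsf2 by -0.34 (SE 0.157), with adjusted p of 0.813 and 0.515 in limma. Of 17 further classical heat shock targets, 16 were tested and all 16 had differences below 0 (median -0.30), from -0.09 for Ubb, which encodes ubiquitin, to -0.60 for the HSP40 gene Dnaja4, and 2 were lower at unadjusted p. All 11 cytosolic HSP40 genes listed beside Dnajb1, some of them also among these targets, were below 0 (median -0.22, from -0.04 for Dnajc5 to -0.60 for Dnaja4), with 2 at unadjusted p.

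Among 11 tested genes of the cytosolic HSP70 family and its exchange factors, 10 were below 0 (median -0.14), from 0.16 for Hspa12a to -0.70 for Bag2, with 1 at unadjusted p. The HSP90 co-chaperones had 13 of 17 below 0 (median -0.18, from 0.07 for Fkbp5 to -0.41 for Aarsd1), with 1 at unadjusted p, and the CCT chaperonin with prefoldin had 12 of 14 (median -0.18, from 0.07 for Pfdn4 to -0.36 for Cct8), with 2. All 5 tested small heat shock proteins were below 0 (median -0.26, from -0.02 for Hspb7 to -0.36 for Cryab), with none at unadjusted p. These list medians, from -0.14 to -0.30, were each nearer to the -0.15 of all genes than to the -0.55 of the 10 genes.

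Among the chaperone lists, the mitochondrial chaperones and proteases stood nearest to 0, with 10 of 14 below it and a median of -0.07. Hspa9, the mitochondrial HSP70, differed by -0.37 (SE 0.214) and Trap1, the mitochondrial HSP90, by -0.31 (SE 0.177), with adjusted p of 0.515 for both in limma, and Grpel2 had the highest difference (0.12). The immediate early genes, which respond to handling as well as to growth signals, were split, with 6 of 12 below 0, from 0.75 for Fos (SE 0.325) to -0.75 for Ier3 (SE 0.389), both with an adjusted p of 0.515 in limma, and Fos was the 1 gene of its list higher at unadjusted p.

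Markers of the colon's cells gave the makeup of the samples. The 10 epithelial markers summed to between 11383 and 16058 TPM in the control samples and between 11428 and 15552 TPM in the Siglec-XII samples, with a median difference of -0.07, so that the labelled tissue was present in every sample. The 8 smooth muscle markers summed to between 631 and 1016 TPM in the control samples and between 307 and 658 TPM in the Siglec-XII samples, lowest in Siglec-XII sample 4. All 8 were below 0 (median -0.66, lowest for Myh11 at -0.78) and 4 were lower at unadjusted p, beside the lower heat shock genes of that sample, and the part of muscle RNA in those was not tested. Of the 8 immune markers, 1 (Jchain) was tested, with a difference of -1.15 (SE 0.545), and 2 had a value of 0 in some sample. Of 6 stromal and endothelial markers, 4 were tested, all below 0, with Pecam1 at -0.59, and of 6 enteric neuron and glia markers only Uchl1 was tested, at -0.37.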

How the data were processed

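Total RNA libraries from 8 mouse colon samples were sequenced. The authors deposited 1 table of log2(TPM + 1) values per gene; the submitters' processing notes name kallisto 0.45.0 and GRCm38, and the Methods describe the libraries and reference differently. TPM keeps no depth, so no counting interval or count test was possible, and precision rests on having 4 samples a group. Groups came from the deposited titles, and 0 columns of samples were unused. Genes reaching 1 TPM in 4 or more samples were tested with limma 3.58.1 (R 4.3.3; trended variance, no covariate) on the deposited scale (pseudocount 1), with Benjamini-Hochberg adjustment over all genes, and the fit was tested on simulated data. Pairs of genes were compared by exact permutation tests (scipy 1.17.1). Transcript lengths and shared 31-base windows came from the GENCODE transcripts of GRCm38, promoters from RefSeq.

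The 10 genes, the gene lists and the tests were chosen with earlier results of these data known. Genes named beyond the 10 were Hsf1, Hsf2, Hspa9, Trap1, the highest and lowest of each list, and the 3 most like Hspa1b and Hspd1 over the samples (1 of them is not reported here); those most like Hspb1 and the squamous list were chosen after their values were seen, as were Pecam1, Jchain and Uchl1 where few markers were tested. Alternatives were another filter, pseudocount, normalization, array weights, a replicate block and leaving out samples.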

Additional observations from a re-analysis of the deposited data

Results flagged for a closer look

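Among 46 genes of the heat shock lists, looked at in both groups (92 groups of 4 samples), 2 samples lay far from the other 3 of their group by Dixon's gap ratio (limit 0.829), where chance gives about 4.6. Hspa12a, a distant HSP70 relative, was set apart in control 2 (gap ratio 0.878), where it reached 1.85 in log2(TPM + 1). Cryab, the small heat shock protein alpha B-crystallin, was set apart in control 1 (gap ratio 0.869), at 3.93. None of the 10 heat shock protein genes was flagged (0 genes).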

How the results depend on the processing

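The number of genes called at adjusted p (5) was 3 with no filter, 3 with a filter at TPM 5, 18 with array weights, between 2 and 6 when 1 sample was left out, and, chosen after seeing the data, 2 without Siglec-XII samples 3 and 4 and 3 with the squamous level as a covariate. None of the 10 genes was called in any setting (0). The count lower at unadjusted p (6, against 7.67% of all genes) was 3 after median centring (2.16%), 3 with array weights (10.8%) and, chosen after seeing the data, 2 without Siglec-XII samples 3 and 4 (1.57%), 3 without control samples 1 and 4 and Siglec-XII sample 2 (5.19%), and 2 with the squamous covariate (2.01%). With 1 sample left out it ran from 2 without Siglec-XII 3 (2.93%) to 7 without Siglec-XII 1 (16.6%) and 8 without Siglec-XII 2 (10.8%). Of 209 alternative differences of the 10 genes, 203 kept their direction and 6 turned: Hspb1 was 0.14 with array weights and 0.061 with the squamous covariate, Hspa8 was 0.031 without Siglec-XII samples 3 and 4, and Hspe1 was 0.071 after median centring, 0.0061 without control sample 1 (-0.21 to 0.0061 with any 1 sample left out) and 0.011 without the 3 samples with most squamous RNA. The cause was not tested. The correlation of Hspd1 with Hspe1 turned to -0.34 after median centring and -0.22 on values centred on their group means, and that of Hsp90aa1 with Hsph1 was 0.74 after median centring. Without control 1, 3 of the 10 genes were lower at unadjusted p, and the difference of Hspb1 was -0.76.

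Samples with the same number were not seen to deviate together (r of -0.165, -0.204, 0.103 and -0.0025). With so few samples, these values cannot show whether the numbers pair the samples. With the replicate number as a block, 4 genes were called at adjusted p and 6 of the 10 genes were lower at unadjusted p, against 6.19% of all genes.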
